A study of Mus musculus with 2 samples.

Results

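Bone mineralization was followed through 10 of the 31253 genes counted in single periosteal cells: *Alpl*, *Ibsp*, *Dmp1*, *Phex*, *Spp1*, *Bglap*, *Bglap2*, *Mepe*, *Enpp1* and *Phospho1*. They were chosen by name, as enzymes, matrix proteins and regulators of mineral, and each matched 1 row of the files. The cells came from the periosteum of femurs and tibias of mice at 8 weeks and were sorted for the Ai9 reporter before capture on the BD Rhapsody system, which counts unique molecular identifiers (UMIs). The control library was made from Prx1 Cre; Ai9/+ mice, and the other library from Prx1 Cre; Ai9/+; Piezo1 fl/fl mice. Both genotypes carry Prx1 Cre, a transgene active in limb mesenchyme, and the Ai9 reporter that it switches on, so the genotypes differ by the floxed *Piezo1* alleles. *Piezo1* encodes a mechanosensitive cation channel. There was 1 library per genotype, the number of mice behind each is not given in the sources used here, and no difference between the libraries could be tested.

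Mineral forms in bone when phosphate and calcium precipitate in and around collagen, starting in part in vesicles shed by osteoblasts. Alkaline phosphatase, encoded by *Alpl*, and the phosphatase encoded by *Phospho1* supply phosphate, whereas the enzyme encoded by *Enpp1* makes pyrophosphate, which blocks crystal growth and is the substrate of alkaline phosphatase. *Ibsp* (bone sialoprotein), *Spp1* (osteopontin), *Dmp1* and *Mepe* encode acidic phosphoproteins of one family that bind mineral or collagen, *Bglap* and *Bglap2* encode osteocalcin, and *Phex* encodes a membrane endopeptidase of late osteoblasts and osteocytes whose loss raises the phosphate hormone FGF23.

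The 4 phosphoprotein genes lie on one strand of chromosome 5 in the order *Dmp1*, *Ibsp*, *Mepe* and *Spp1*, within 238.4 kb of GRCm38 in the GENCODE vM21 annotation. *Bglap* (chromosome 3, 88383501 to 88384464) and *Bglap2* (chromosome 3, 88377736 to 88378699) are neighbours 4.801 kb apart on the minus strand. Of all stretches of 50 bases in the last 300 bases of the *Bglap* transcript, 80.1% occurred unchanged in that of *Bglap2*, so reads of the pair may have been split between them by the counting and their separate levels are uncertain. *Phospho1* (chromosome 11, 95824499 to 95832140) overlaps *Abi3* on the other strand and *Zfp652* on its own, and *Spp1* and *Phex* overlap unnamed predicted genes.

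The promoters of 5 members are shown because 4 of these genes were high together in mature osteoblast-like cells while the fifth, *Mepe*, was all but absent. The sequences are RefSeq windows of GRCm38.p6 from 250 bases before to 50 after a gene's start, written 5′ to 3′ on the gene's strand, and capitals mark the letters TGTGGT or, on the other strand, ACCACA, the core bound by Runx factors. The windows are chr3:88384417-88384716 on the minus strand for *Bglap*, and on the plus strand chr5:104299037-104299336 for *Ibsp*, chr5:104202367-104202666 for the downstream of 2 starts of *Dmp1*, chr5:104434861-104435160 for the upstream of 2 starts of *Spp1*, and chr5:104325079-104325378 for *Mepe*.
Bglap: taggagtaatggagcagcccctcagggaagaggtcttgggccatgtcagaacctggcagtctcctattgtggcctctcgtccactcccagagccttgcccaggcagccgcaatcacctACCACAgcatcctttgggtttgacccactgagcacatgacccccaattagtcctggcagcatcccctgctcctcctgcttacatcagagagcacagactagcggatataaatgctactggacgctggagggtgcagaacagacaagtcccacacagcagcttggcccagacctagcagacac
Ibsp: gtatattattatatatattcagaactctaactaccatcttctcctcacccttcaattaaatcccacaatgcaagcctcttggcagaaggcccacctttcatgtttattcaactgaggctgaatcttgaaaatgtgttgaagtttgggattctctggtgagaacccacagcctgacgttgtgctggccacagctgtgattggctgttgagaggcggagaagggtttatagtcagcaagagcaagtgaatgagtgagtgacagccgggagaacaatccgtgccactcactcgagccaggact
Dmp1: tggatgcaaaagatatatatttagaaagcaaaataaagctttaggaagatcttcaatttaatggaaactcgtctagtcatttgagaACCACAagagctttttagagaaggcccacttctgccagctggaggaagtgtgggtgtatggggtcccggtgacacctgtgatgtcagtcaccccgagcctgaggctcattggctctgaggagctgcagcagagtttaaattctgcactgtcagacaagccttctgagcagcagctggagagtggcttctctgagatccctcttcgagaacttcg
Spp1: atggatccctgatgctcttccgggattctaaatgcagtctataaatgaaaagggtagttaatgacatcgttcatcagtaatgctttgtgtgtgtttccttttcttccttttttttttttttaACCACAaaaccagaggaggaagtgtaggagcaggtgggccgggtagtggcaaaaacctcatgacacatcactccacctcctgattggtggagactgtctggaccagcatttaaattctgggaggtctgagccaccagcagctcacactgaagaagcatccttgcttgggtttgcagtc
Mepe: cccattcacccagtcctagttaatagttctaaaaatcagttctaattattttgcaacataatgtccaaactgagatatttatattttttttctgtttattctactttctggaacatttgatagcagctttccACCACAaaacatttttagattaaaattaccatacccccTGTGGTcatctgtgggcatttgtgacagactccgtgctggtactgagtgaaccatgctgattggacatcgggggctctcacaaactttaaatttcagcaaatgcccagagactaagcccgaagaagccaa

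The core occurred 1 time in the *Bglap*, *Spp1* and *Dmp1* windows shown, 2 times in that of *Mepe* and 0 times in that of *Ibsp*. It occurred 0 times in the windows of *Spp1* and *Dmp1* that are not shown. Windows were found for 9 members, *Bglap2* having none in the table, and 5 of the 12 windows of these members held the core (41.7%), against 5506 of 32851 windows over all genes (16.8%). The *Enpp1* window held it as well. A match describes letters only, and its absence from a window says nothing of a factor.

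After filtering, 4418 control and 5084 Piezo1 fl/fl cells remained, with medians of 4812.5 and 4593 UMIs per cell, out of totals of 28030299 and 32337308 UMIs over all barcodes. Cells were grouped without the members, the other mineralization genes or *Piezo1* among the clustering features, and groups are called like a type only from marker genes. SSPC-1 and SSPC-2 are the study's names for a pair of periosteal skeletal stem or progenitor cell populations. SSPC-2-like cells (760 control, 540 Piezo1 fl/fl) were taken from clusters led by *Mmp13*, *Tnn* or *Bglap*. Mature osteoblast-like cells (46 and 17) were those cells of the bone clusters with at least 3 of 8 markers such as *Ifitm5*, *Slc36a2* and *Bmp8a*, and came mostly from cluster 8 in the control and from cluster 3, with the SSPC-2-like cells, in the Piezo1 fl/fl library. *Sost*, which marks embedded osteocytes, had 0 UMIs in both libraries. SSPC-1-like cells (789) were named only in the control library. The matching Piezo1 fl/fl cluster of 883 cells had more tendon than SSPC-1 genes among its leading genes and is called Chad-led. Even so, 8 of 9 SSPC-1 markers were detected in it, beside 6 of 7 tendon markers, and *Angptl7*, an SSPC-1 marker, was among its leading genes. *Piezo1* had 33 UMIs in control and 4 in Piezo1 fl/fl SSPC-2-like cells (6.16 and 1.26 CPM), and since the position of its tags relative to the floxed part is not given in the sources used here, this does not check the deletion. The libraries shared 50 barcodes, 26 of them among kept cells.

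Levels are UMIs of a gene per 1000000 UMIs of all genes in a cell type and library (CPM), followed by the exact Poisson 95% interval, which covers counting error only and not differences between mice. Vascular cells, the endothelial-like and mural-like cells together (468 control, 504 Piezo1 fl/fl), served as the background of free RNA. There, *Bglap* and *Bglap2* were at 17.5 and 15.9 CPM in the control and at 4.52 and 4.07 CPM in the Piezo1 fl/fl library, and *Ibsp* and *Spp1* at 30.3 and 9.26 CPM in the control and at 37.0 and 14.0 CPM in the other. The 2 vascular types were not at one level for every member. *Alpl* was at 97.4 and 95.8 CPM in endothelial-like and at 13.9 and 3.66 CPM in mural-like cells of the control and Piezo1 fl/fl libraries. *Ibsp* was at 64.4 and 27.4 CPM in the endothelial-like and mural-like cells of the Piezo1 fl/fl library, and *Spp1* had 11 UMIs in the 174 endothelial-like and 7 in the 294 mural-like cells of the control.

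**Figure D1:**
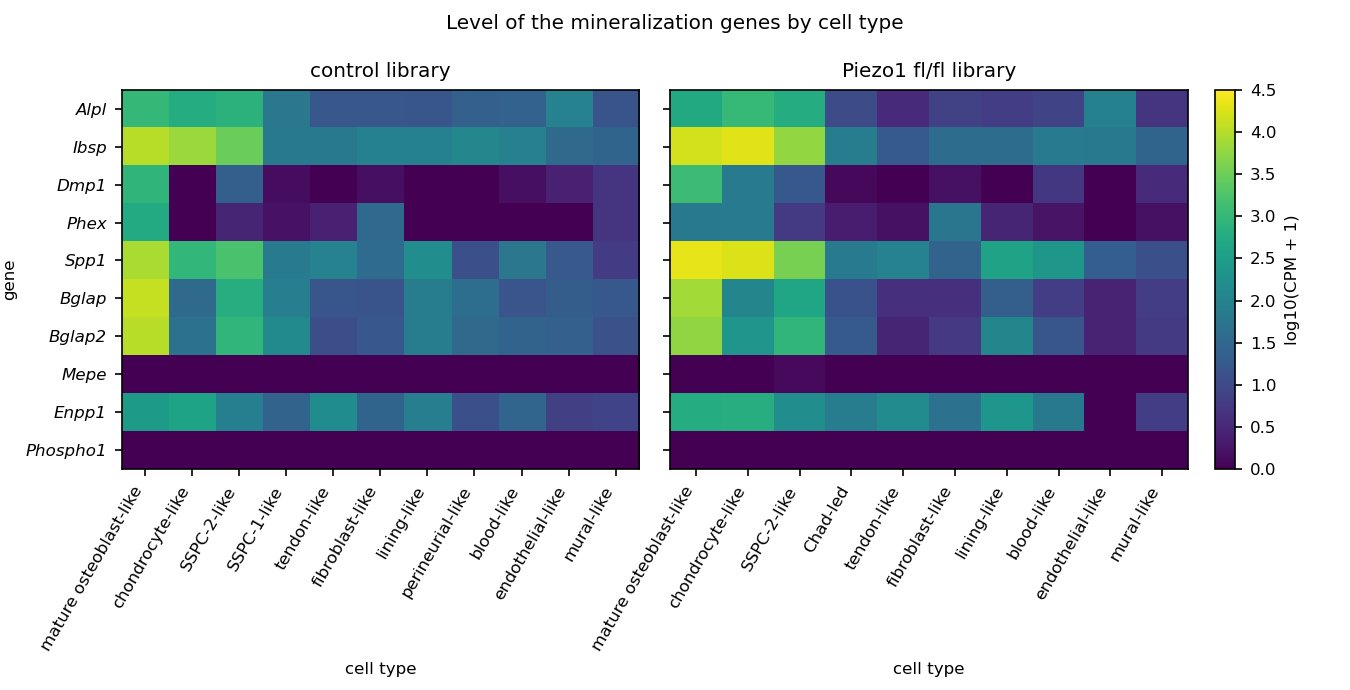
Level of each of the 10 genes (rows) in each cell type (columns) of the control (left) and Piezo1 fl/fl (right) library, as log10(CPM + 1), brighter for higher. Mature osteoblast-like, chondrocyte-like and SSPC-2-like cells hold the bright columns, *Mepe* and *Phospho1* are dark throughout, and *Phex* has a separate patch in fibroblast-like cells.

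*Alpl* separated the bone and chondrocyte-like cells from the rest but not the SSPC-2-like from the mature osteoblast-like cells. Its level in SSPC-2-like cells was 789.9 CPM (766 to 814) for the control and 612 CPM (585 to 639) for the Piezo1 fl/fl library. Mature osteoblast-like cells held 1002 CPM (915 to 1095) for the control and 532 CPM (436 to 642) for the Piezo1 fl/fl library, ratios of 1.27 (1.15 to 1.39) and 0.869 (0.709 to 1.06) to SSPC-2-like cells. A UMI of *Alpl* was seen in 87.9% of control and 67.8% of Piezo1 fl/fl SSPC-2-like cells, compared with 5.10% and 1.38% of mural-like cells. Thinning to 2500 UMIs left out the 482 control and 580 Piezo1 fl/fl kept cells that had fewer. In the thinned cells the shares were 73.9% and 55.5%, against 4.05% and 1.30%. SSPC-2-like cells, being many, carried 78.1% of all *Alpl* UMIs of kept control cells.

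*Enpp1*, whose product opposes that of *Alpl*, had a wider spread over cell types. It stood at 84.9 CPM (77.3 to 93.1) for the control and 161 CPM (147 to 176) for the Piezo1 fl/fl library in SSPC-2-like cells and at 282 CPM (237 to 334) for the control and 616 CPM (512 to 735) for the Piezo1 fl/fl library in mature osteoblast-like cells. The order of the control levels was chondrocyte-like (399.9 CPM), mature osteoblast-like, tendon-like (156 CPM), SSPC-2-like, lining-like (82.0 CPM), blood-like (28.7 CPM), fibroblast-like (27.7 CPM) and SSPC-1-like (26.4 CPM). SSPC-2-like and lining-like cells did not differ beyond counting error, nor did the last 3 among neighbours. In the other library tendon-like cells were at 146 CPM and lining-like cells, which carry the lubricin gene *Prg4*, at 231 CPM.

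*Phospho1* had 0 UMIs in any kept cell of either library. In SSPC-2-like cells a count of 0 allows up to 0.560 CPM in the control and 0.942 CPM in the Piezo1 fl/fl library, taking 3 UMIs as the limit, and in the fewer mature osteoblast-like cells up to 6.22 and 14.9 CPM. *Mepe*, an osteocyte gene, had 0 UMIs in the control and 1 UMI in the Piezo1 fl/fl library, in an SSPC-2-like cell. Both genes were below the 10 UMIs needed for a ratio, so 8 of the 10 members were measured in the comparisons of bone cells.

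*Ibsp* rose in 2 steps. SSPC-1-like cells of the control held 64.5 CPM (57.4 to 72.3), and SSPC-2-like cells 3099 CPM (3052 to 3147), a ratio of 48.0 (42.8 to 54.1). Mature osteoblast-like cells reached 10515 CPM (10227 to 10808), a further 3.39 (3.29 to 3.50) times higher. The Piezo1 fl/fl library held 79.5 CPM (71.1 to 88.6) in Chad-led, 5807 CPM (5724 to 5892) in SSPC-2-like and 15418 CPM (14879.9 to 15969.9) in mature osteoblast-like cells. In both libraries the 3 levels kept this order, with intervals that did not overlap. The second step of the Piezo1 fl/fl library depended on how types were set. Its log2 ratio was 1.41, and 0.03 with types set by markers in each cell alone.

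*Spp1* followed the same order with a much more uneven spread over cells. SSPC-2-like cells held 1632 CPM (1598 to 1667) for the control and 3729.7 CPM (3663 to 3797) for the Piezo1 fl/fl library, and mature osteoblast-like cells 8654 CPM (8393 to 8921) for the control and 21713 CPM (21074 to 22366) for the Piezo1 fl/fl library. A UMI of *Spp1* was found in 22.5% of control and 37.8% of Piezo1 fl/fl SSPC-2-like cells (15.5% and 34.1% after thinning), against 2.46% and 4.24% of thinned vascular cells. Cluster 3 held 4406 *Spp1* UMIs (837 CPM), against 8742 in all control SSPC-2-like cells. The top 10% of cells held 98.3% of the *Spp1* UMIs of control SSPC-2-like cells and 86.4% in the other library. For *Ibsp* these shares were 62.0% and 63.6%, and for *Alpl* 32.8% and 40.4%. Even among mature osteoblast-like cells, 20 of 46 control and 3 of 17 Piezo1 fl/fl cells had no *Spp1* UMI, while the highest cells held 743 and 874 per 10000 UMIs of the cell.

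**Figure D2:**
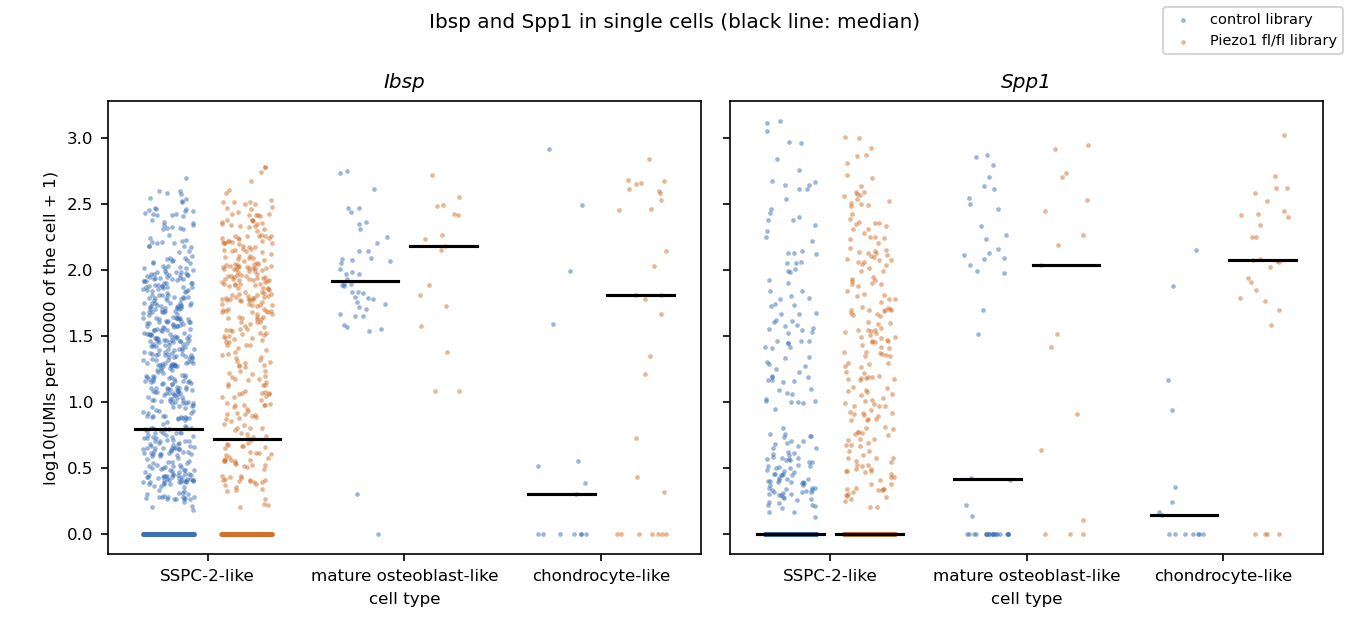
*Ibsp* (left) and *Spp1* (right) in single cells, as log10 of the UMIs per 10000 UMIs of the cell plus 1, for SSPC-2-like, mature osteoblast-like and chondrocyte-like cells. Each point is a cell, colours separate the control and Piezo1 fl/fl libraries, and black lines are medians, which lie at 0 for *Spp1* in SSPC-2-like cells of both libraries.

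*Dmp1*, needed for osteocyte maturation and mineral deposition, was highest in mature osteoblast-like cells, which held 76.1% of its UMIs in kept control cells and 71.6% in the other library, beside 21.4% and 15.4% in SSPC-2-like cells. It reached 886 CPM (804 to 974) for the control and 1202 CPM (1056 to 1364) for the Piezo1 fl/fl library there, against 22.4 CPM (18.6 to 26.8) for the control and 16.3 CPM (12.2 to 21.4) for the Piezo1 fl/fl library in SSPC-2-like cells, ratios of 39.5 (32.2 to 48.8) and 73.7 (54.4 to 101). Cluster 3, with 742 of the control bone cells, held 38 *Dmp1* UMIs (7.22 CPM), against 120 UMIs in all control SSPC-2-like cells, which include cells of cluster 8. SSPC-1-like cells had 2 UMIs and Chad-led cells 1 UMI. Within mature osteoblast-like cells, 27 of 46 control and 12 of 17 Piezo1 fl/fl cells had a UMI, and 1 cell alone held 43.1% and 31.8% of the UMIs.

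The osteocalcin genes rose more steeply between the 2 bone types than *Alpl* and *Ibsp*, the other members found in most SSPC-2-like cells. *Bglap* was at 625 CPM (604 to 646) in control SSPC-2-like and 12776 CPM (12459 to 13099) in mature osteoblast-like cells, 20.4 (19.6 to 21.3) times higher. *Bglap2* went from 931 to 10513 CPM, 11.3 (10.9 to 11.7) times higher. The Piezo1 fl/fl values were 439 and 7587 CPM for *Bglap* and 927 and 5724 CPM for *Bglap2*. *Bglap* UMIs made up 40.2% (39.1 to 41.2, exact binomial interval) of the pair in control SSPC-2-like and 54.9% (53.9 to 55.8) in mature osteoblast-like cells. In the Piezo1 fl/fl library these shares were 32.1% (30.7 to 33.5) and 57.0% (55.1 to 58.9). The balance within the pair thus moved the same way in both libraries, with the limit on telling the transcripts apart given above.

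*Phex* was found both in mature osteoblast-like cells and in fibroblast-like cells, and it had the widest gap of the members between the libraries in the former. In the control it was at 564 CPM (499 to 635) in mature osteoblast-like cells, where 19 of 46 cells had a UMI, and at 1.87 CPM (0.895 to 3.43) in SSPC-2-like cells, which is not above the vascular 2.57 CPM (0.835 to 6.001). Mature osteoblast-like cells of the Piezo1 fl/fl library held 13 UMIs in 3 of 17 cells, 9 of them in 1 cell, or 64.6 CPM (34.4 to 110.5). Outside the bone cells *Phex* was found in fibroblast-like cells, at 33.7 CPM for the control and 57.7 CPM for the other library, in 6.85% and 9.81% of cells against 0.855% and 0.198% of vascular cells. The highest fibroblast-like cluster was one of 231 Piezo1 fl/fl cells led by *Gdf10*, *Fmo2* and *Abcc9*, with 261 CPM (236 to 288) and a UMI in 37.7% of cells. *Alpl* was at 36.8 CPM in that cluster, in 13.4% of cells, against 4.24, 1.59 and 1.38 CPM in the other fibroblast-like clusters of the library. *Ibsp*, *Enpp1*, *Spp1*, *Bglap*, *Bglap2* and *Dmp1* were at 18.4, 13.2, 9.87, 5.26, 5.26 and 1.32 CPM there, and *Mepe* and *Phospho1* had 0 UMIs.

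**Figure D3:**
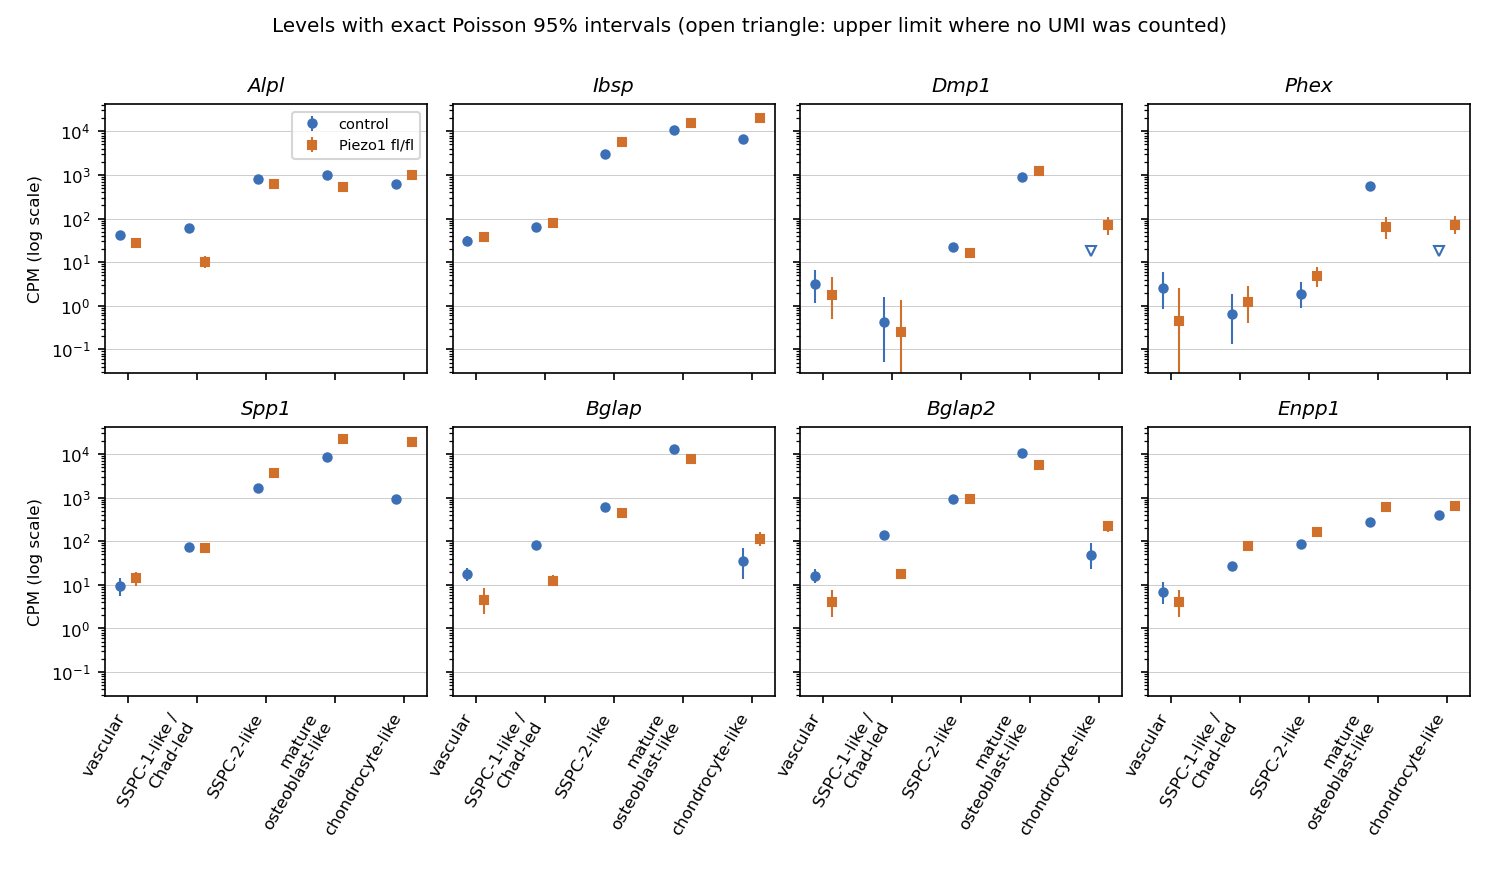
CPM on a log scale of the 8 members with measured ratios, in vascular, SSPC-1-like (Chad-led in the Piezo1 fl/fl library), SSPC-2-like, mature osteoblast-like and chondrocyte-like cells, with exact Poisson 95% intervals. Circles are the control and squares the Piezo1 fl/fl library, and open triangles are upper limits where 0 UMIs were counted. *Phex* climbs mainly at the mature osteoblast-like step and *Dmp1* at both the SSPC-2-like and the mature osteoblast-like step, and *Bglap* and *Bglap2* are low in chondrocyte-like cells.

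A gene was counted as higher or lower where its ratio was at least 2-fold and the exact conditional 95% interval of the ratio left out 1, with at least 10 UMIs in the 2 groups together. SSPC-2-like over SSPC-1-like cells of the control, 7 of 8 measured members were higher and 0 lower, where 5.62% of the 12244 genes measured were higher and 1840 of them were lower. Their median log2 ratio was 3.31, beside -0.23 over all genes. The exception was *Phex*, with 10 and 3 UMIs. The ratios of the 7 ranged from 3.22 (2.63 to 3.97) for *Enpp1* to 51.4 (13.9 to 429) for *Dmp1*, the latter against 2 UMIs. With control cluster 8 counted whole as mature osteoblast-like, the log2 ratio of *Dmp1* went from 5.68 to 4.05. Against Chad-led cells in the Piezo1 fl/fl library all 8 were higher and 0 lower (6.24% and 9.19% of all genes), with a median of 5.57 beside -0.10. Its *Enpp1* ratio, 2.05 (1.78 to 2.37), was just over 2. *Phex* rests there on 15 and 5 UMIs, and its log2 ratio was -0.52 at a clustering resolution of 0.2 and -0.44 with doublets kept.

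Mature osteoblast-like over SSPC-2-like cells, 7 of 8 members were higher in the control (4.97% of 11172 genes) and 7 of 8 in the Piezo1 fl/fl library (3.03% of 10456 genes), and 0 were lower in either (9.52% and 7.03% of all genes). The median log2 ratios were 2.95 and 2.58, beside -0.14 and -0.19 over all genes. *Alpl* was the exception in both. The control ratio was 302 (162 to 637) for *Phex*, ahead of *Dmp1*, *Bglap* and *Bglap2*, and it was 5.30 (5.11 to 5.50) for *Spp1* and 3.32 (2.72 to 4.03) for *Enpp1*, beside that of *Ibsp*. The control values of *Spp1*, *Dmp1* and *Enpp1* depend on the cells of cluster 8 left among the SSPC-2-like cells. With that cluster counted whole as mature osteoblast-like, an alternative added once the data had been seen, their log2 ratios went from 2.41 to 4.12, from 5.31 to 6.92 and from 1.73 to 2.60. Where types were set by markers in each cell alone, with no clusters, the counts were 5 of 8 and 4 of 8, and the log2 ratios of *Spp1* and *Enpp1* were then below 0, at -0.35 and -1.51 in the control and -0.25 and -0.28 in the Piezo1 fl/fl library. *Ibsp* was then not counted as higher in the Piezo1 fl/fl library, with a log2 ratio of 0.03. That setting left 21 and 7 mature osteoblast-like cells.

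Against vascular cells, 7 of 8 members were higher in control SSPC-2-like cells (11.6% of all genes) and 8 of 8 in those of the Piezo1 fl/fl library (13.8%), and 8 of 8 in mature osteoblast-like cells of both (7.56% and 6.80%). Of all genes, 24.5% and 20.6% were lower in SSPC-2-like than in vascular cells of the control and Piezo1 fl/fl library, and 28.0% and 19.0% in mature osteoblast-like cells, against 0 members in each. *Spp1* stood 176 (111 to 298) times above the vascular level in control SSPC-2-like cells, and *Dmp1* 7.26 (3.24 to 20.2) times. With control cluster 8 counted whole as mature osteoblast-like, the log2 ratio of *Dmp1* went from 2.86 to 1.23. Under that setting 6 of 8 members were higher in control SSPC-2-like than in vascular cells. *Phex* was the 1 member not above it there, with a ratio of 0.726 (0.226 to 2.71).

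The step between the 2 bone types was followed by the number of mature markers seen in each bone cell, 0, 1, 2 or at least 3 (357, 299, 92 and 58 control cells; 304, 169, 63 and 21 Piezo1 fl/fl cells). *Ibsp* and *Spp1* climbed at each number. The control *Ibsp* level went through 2636, 2929, 4093 and 9977 CPM, and that of *Spp1* through 789.5, 1596, 2188 and 9660.3 CPM. *Dmp1* stayed at or under 22.3 CPM up to 2 markers in the control and was 789.9 CPM with 3 or more. *Phex* went from 4.55 to 463 CPM at that last step, and *Bglap* from 902 to 10577 CPM. *Alpl* moved less, from 725 to 934 CPM in the control and from 514 to 642 CPM in the Piezo1 fl/fl library. Cells with more markers were also deeper, with median UMIs of 4980, 6309, 8212.5 and 8631.5 in the control and 4168, 5922, 7028 and 11471 in the other library, and the part of depth in these steps was not tested.

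**Figure D4:**
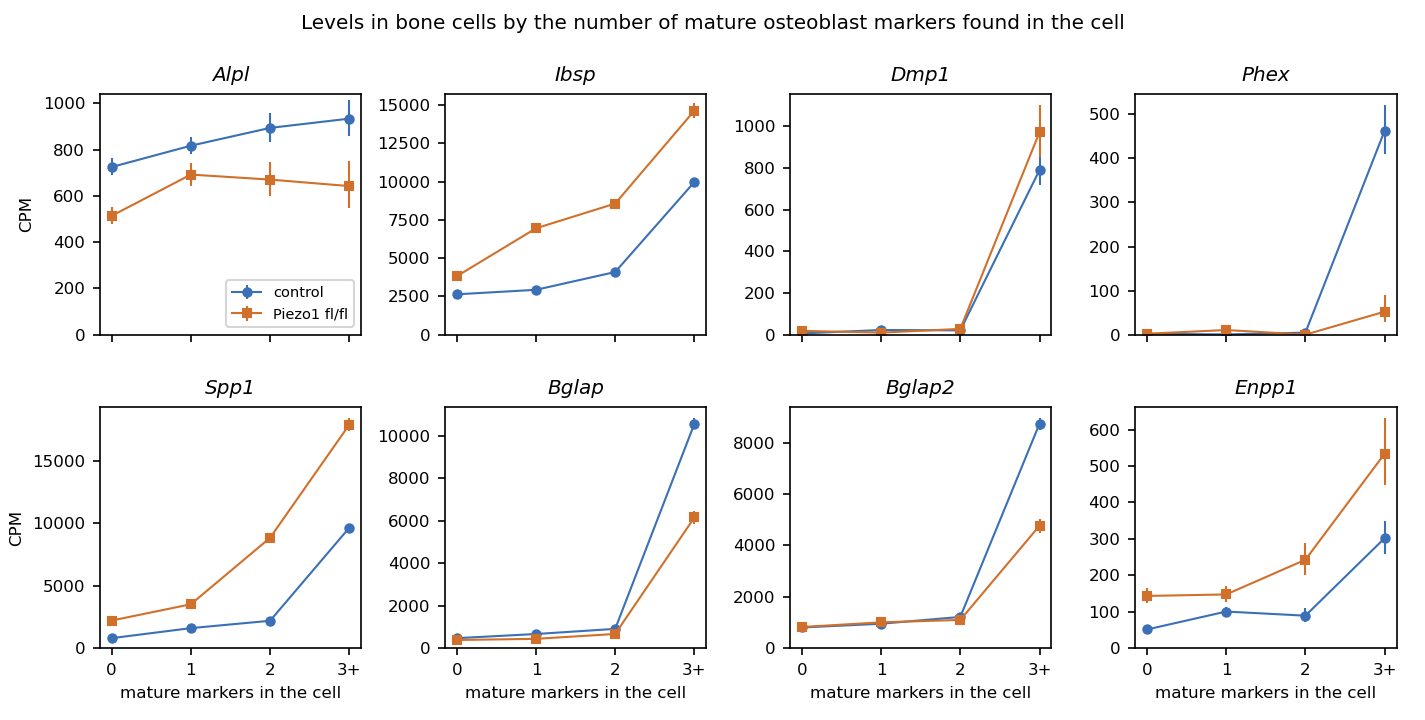
CPM of the 8 measured members (each on its own axis from 0) in bone cells with 0, 1, 2 or at least 3 mature osteoblast markers, with exact Poisson 95% intervals, for the control (circles) and Piezo1 fl/fl (squares) libraries. *Dmp1*, *Phex*, *Bglap* and *Bglap2* change mostly at the last step, *Ibsp* and *Spp1* at each step, and *Alpl* little.

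No thinned cell held more than 7 of the members. After thinning to 2500 UMIs, control mature osteoblast-like cells had a median of 5 of the 10 members, and 32 of 44 (72.7%) had at least 5. SSPC-2-like cells had a median of 3, and 8.25% of 727 had at least 5. The Piezo1 fl/fl values were 4 and 47.1% of 17 mature osteoblast-like cells, and 3 and 14.2% of 492 SSPC-2-like cells. No member was found in 4.26% and 7.32% of SSPC-2-like cells, while it was so for 79.4% and 86.97% of mural-like cells.

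Chondrocyte-like cells, 15 of the control and 29 of the Piezo1 fl/fl library, held part of the set. *Ibsp* was at 6784 CPM (6430.2 to 7153) for the control and 19894 CPM (19369 to 20429) for the Piezo1 fl/fl library, *Alpl* at 622 and 1023 CPM and *Enpp1* at 399.9 and 643 CPM. The osteocalcin genes were low, *Bglap* at 34.6 and 113 CPM, or 7 and 31 UMIs. Compared with mature osteoblast-like cells, 5 of 8 members were lower in the control (10.3% of all genes) and 3 of 8 in the Piezo1 fl/fl library (8.12%), *Dmp1*, *Bglap* and *Bglap2* in both. The 2 libraries were not alike in these few cells. Control cells lay in cluster 0 of the fibroblast-like cells, 14 of 15, and 2 of them held 89.7% of the *Ibsp* UMIs, while 27 of 29 Piezo1 fl/fl cells formed cluster 13, led by *Col2a1*, *Ibsp* and *Cytl1* with *Col10a1*, a gene of hypertrophic cartilage. *Spp1* was at 953 CPM in the control and 18429 CPM in the Piezo1 fl/fl cells, and 6 of 8 members were higher in the latter (6.43% of all genes) and 0 lower (11.4%). By the 2-fold rule no member was higher in chondrocyte-like than in mature osteoblast-like cells of either library, where 16.5% and 11.5% of all genes were. Short of 2-fold, *Ibsp* was 1.29 (1.23 to 1.35) times higher in chondrocyte-like cells of the Piezo1 fl/fl library. There *Alpl* was at 1023 against 532 CPM, and *Enpp1* was 1.42 (1.06 to 1.88) times higher in those of the control.

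Lining-like cells of the Piezo1 fl/fl library held more *Bglap2* than *Bglap* UMIs, 123 against 23. There, 60 of 124 cells (48.4%) had a *Bglap2* UMI, or 22.3% after thinning, against 0.651% of mural-like cells, and *Bglap* made up 15.8% (10.3 to 22.7) of the pair. In the 55 control cells of this type *Bglap* made up 48.6% (36.9 to 60.6), with 21 of its 36 UMIs in 1 cell. *Spp1* in lining-like cells was at 158 CPM in the control, 97.3% of it in 1 cell, and at 387 CPM in the Piezo1 fl/fl library. Outside bone, *Spp1* was also above the vascular level in blood-like cells, 59.0 and 237 CPM, and in tendon-like cells, 97.0 and 96.3 CPM.

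Between the libraries, *Spp1* and *Enpp1* stood higher in both bone types of the Piezo1 fl/fl library under every setting tried, with lowest log2 ratios of 0.57 and 0.55. *Alpl* and *Bglap* stood lower in both under every setting, with highest log2 ratios of -0.02 and -0.07. *Ibsp* stood higher in both except in mature osteoblast-like cells with types set by markers per cell, at -0.06. In SSPC-2-like cells the log2 ratios of Piezo1 fl/fl over control were 1.19 (1.15 to 1.23) for *Spp1*, 0.92 (0.74 to 1.11) for *Enpp1*, 0.91 (0.88 to 0.94) for *Ibsp*, -0.01 (-0.07 to 0.06) for *Bglap2*, -0.37 (-0.45 to -0.29) for *Alpl* and -0.51 (-0.60 to -0.42) for *Bglap*. With doublets kept the *Alpl* ratio was -0.02. *Dmp1* was at -0.46 (-0.96 to 0.02) and turned to 1.18 with control cluster 8 counted whole as mature osteoblast-like, where *Spp1* was at 2.15. By the 2-fold rule 2 of 8 members, *Spp1* and *Phex*, were higher (4.37% of 11733 genes) and 0 were lower (1.78%), with a median of 0.45 beside 0.10 over all genes. The *Phex* ratio rests on 15 and 10 UMIs, 7 of the 15 in 1 cell. Without the top cell 1 member was higher, and with thinned cells or the mean of per-cell CPM the counts were 0 and 1. *Tnn*, a defining SSPC-2 marker, was at 7545 CPM in the control and 4252 CPM in the Piezo1 fl/fl cells, and the part of such a shift within the type was not tested.

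Mature osteoblast-like cells gave 2 of 8 members higher, *Spp1* and *Enpp1* (4.35% of 6187 genes), and 1 lower, *Phex* (3.86%), with a median log2 ratio of -0.15 beside 0.04. *Spp1* had a log2 ratio of 1.33 (1.27 to 1.39), *Enpp1* 1.13 (0.76 to 1.49) and *Phex* -3.13 (-4.05 to -2.33). *Bglap*, *Bglap2* and *Alpl* were at -0.75 (-0.83 to -0.67), -0.88 (-0.97 to -0.78) and -0.91 (-1.23 to -0.61), and *Ibsp* and *Dmp1* at 0.55 (0.49 to 0.62) and 0.44 (0.21 to 0.67). With types set by markers per cell, *Dmp1* turned to -0.73, *Ibsp* was at -0.06 and *Bglap* at -0.07, and *Dmp1* was at 0.02 as the mean of per-cell CPM. One of the 17 Piezo1 fl/fl cells held 44.3% of the *Bglap* UMIs and one held 45.2% of those of *Enpp1*. Without the top cell of each library and gene, 4 members (*Alpl*, *Phex*, *Bglap* and *Bglap2*) were lower and 1, *Spp1*, was higher, with log2 ratios of -1.24 for *Bglap* and 0.76 for *Enpp1*. With all 64 cells of control cluster 8 counted as mature osteoblast-like, an alternative added once the data had been seen, 0 were higher in these cells, *Spp1* being at 0.57, and 5 were higher in SSPC-2-like cells. Genotype and library cannot be told apart.

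**Figure D5:**
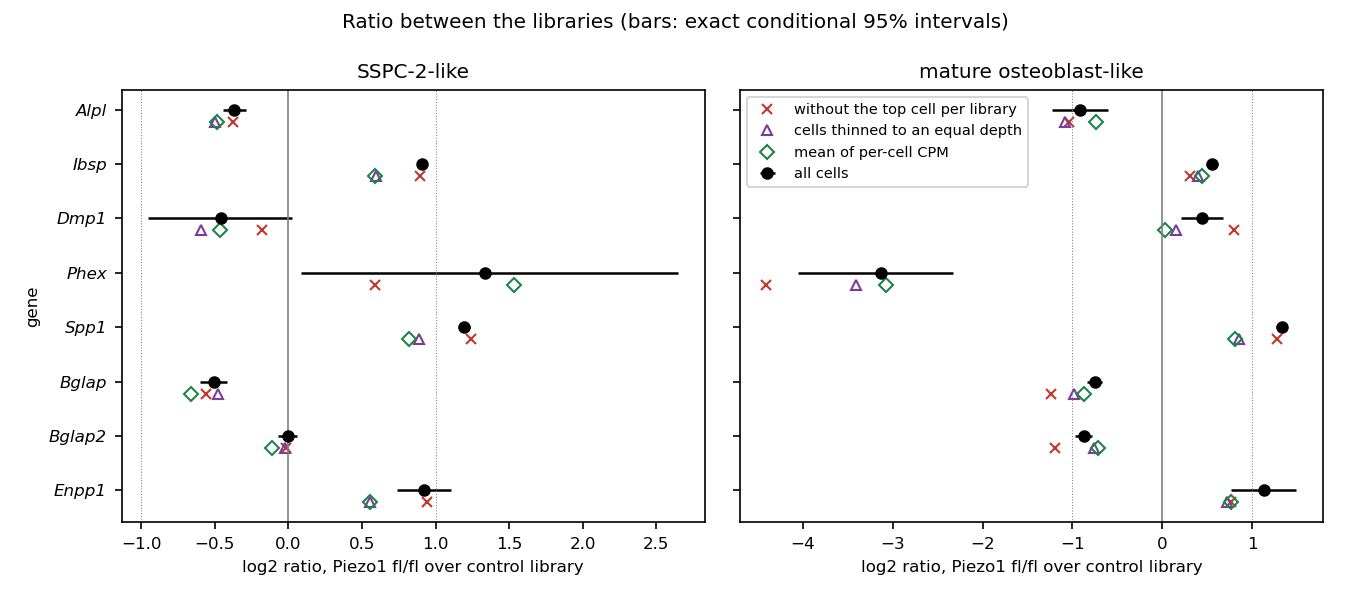
Log2 ratio of the Piezo1 fl/fl over the control library for 8 members in SSPC-2-like (left) and mature osteoblast-like cells (right), with exact conditional 95% intervals. Coloured marks give the ratio without the top cell, with thinned cells (not measured for *Phex* in SSPC-2-like cells) and as the mean over cells, and dotted lines mark a 2-fold ratio. *Spp1* lies right of 0 and *Bglap* and *Alpl* left of it in both types under each of these, and *Phex* lies on opposite sides in the 2 types.

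Outside the bone and chondrocyte-like cells, *Bglap* was lower in the Piezo1 fl/fl library by the 2-fold rule in tendon-like, fibroblast-like, endothelial-like, mural-like, lining-like and blood-like cells. *Bglap2* was not lower in lining-like cells, where it was at 79.9 CPM for the control and 117 CPM for the other library. Fibroblast-like cells went from 13.9 to 3.01 CPM and vascular cells from 17.5 to 4.52 CPM. In fibroblast-like cells 4 of 8 members were lower (3.50% of all genes), and in tendon-like cells 4 of 6 (3.92%), *Alpl*, *Ibsp*, *Bglap* and *Bglap2* in both, with 0 members higher in either (all genes 1.85% and 3.80%). Endothelial-like cells had 2 of 5 members lower (2.70%) and 0 higher (3.25%), mural-like cells 3 of 6 lower (2.66%) and 0 higher (1.03%), and all vascular cells 2 of 7 lower (3.01%) and 0 higher (1.17%). Lining-like cells had *Spp1* and *Enpp1* higher (5.63%) and *Ibsp* and *Bglap* lower (2.34%) among 6 members. Blood-like cells had *Dmp1*, *Spp1* and *Enpp1* higher (4.02%) and *Alpl* and *Bglap* lower (3.49%) among 7. Several of these calls rest on few UMIs. *Dmp1* had 12 UMIs in Piezo1 fl/fl and 1 in control blood-like cells. In tendon-like cells *Alpl*, *Bglap* and *Bglap2* had 4, 5 and 3 UMIs in the Piezo1 fl/fl library, against 20, 19 and 14 in the control. The levels of *Bglap* in fibroblast-like and tendon-like cells lie below the vascular level of each library, but not all lower values do: in lining-like cells *Bglap* was at 75.7 and 21.8 CPM, and *Ibsp* was at 94.3 CPM in control fibroblast-like cells. Those cells came in part from control cluster 0, led by *Col2a1*. With its chondrocyte-like cells counted in, that cluster held *Ibsp* at 427 CPM, against 28.6 CPM in control cluster 2. The part of cells just under the chondrocyte threshold was not tested. Mature osteoblast-like cells were 1.04% of kept control and 0.334% of kept Piezo1 fl/fl cells. The part of free RNA in these differences was not tested.

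A list of 23 other mineralization genes was chosen by hand. Of its 19 measured genes, 5 were higher (5.62% of all genes) and 6 lower (1840 of 12244 genes) in control SSPC-2-like over SSPC-1-like cells, with a median log2 ratio of -0.16, and 6 were higher (4.97%) and 3 lower (9.52%) in mature osteoblast-like over SSPC-2-like cells, with a median of 0.61. *Smpd3*, a sphingomyelinase needed for mineralization, went from 1.68 to 357 CPM in the control and from 5.96 to 209 CPM in the other library at that step. *Mgp*, which encodes an inhibitor of calcification, ran the other way, with 6991, 256 and 64.3 CPM in SSPC-1-like, SSPC-2-like and mature osteoblast-like control cells, and 22554, 2644 and 368 CPM in Chad-led, SSPC-2-like and mature osteoblast-like Piezo1 fl/fl cells. *Ank*, a pyrophosphate exporter that acts beside *Enpp1*, was at 126 and 355 CPM in the 2 control bone types and at 296 and 1028 CPM in those of the other library. *Vdr*, the vitamin D receptor, was higher in SSPC-2-like than in SSPC-1-like cells, 122 against 3.71 CPM in the control.

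The genes most like each member were ranked by Pearson correlation of log2(CPM + 1) over the 18 groups of type and library with at least 30 cells, which share depth and free RNA within a library, so that r is a description. *Alpl* was nearest to *Sp7* (0.89) and *Tnn* (0.87), *Bglap* to *Sp7* (0.94) and *Slc36a2* (0.92), and *Bglap2* to *Sp7* (0.92) and *Gm36827* (0.90). *Ibsp* was nearest to *Gm36595* (0.94) and *Slc36a2* (0.94), *Dmp1* to *Entpd3* (0.97) and *Mlip* (0.94), *Spp1* to *Rcor2* (0.87) and *1810058I24Rik* (0.86), *Phex* to *Vstm2b* (0.87) and *Car3* (0.86) and *Enpp1* to *Ctsk* (0.87) and *Cercam* (0.86). *Sp7*, which encodes the osteoblast transcription factor osterix, thus ranked first for 3 of the members. However, *Sp7* and *Tnn* were among the markers used to name SSPC-2-like cells, and *Slc36a2* among those of mature osteoblast-like cells. Their nearness to the members over these groups was thus set in part by how the groups were made. The cells of the smallest groups, mature osteoblast-like in the Piezo1 fl/fl library and chondrocyte-like in both, were not among the 18.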

How the data were processed

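Single periosteal cells were measured in 2 libraries, 1 per genotype. The authors deposited raw UMI counts per gene and cell barcode with gene and barcode names. The submitters' processing notes name fastp, UMI-tools, STAR and Seurat 4.0.3, and the genome build, annotation and strand setting are not given in the sources used here. A cell needed 1000 to 5000 genes and less than 25% of mitochondrial UMIs. The study's methods state these cutoffs together with the cell count of its fracture series. The 46 and 67 barcodes called doublets by Scrublet in scanpy 1.11.5 (0.829% and 0.988%) were removed. Each library was clustered alone in Seurat 5.3.0 under R 4.3.3 (2000 variable features less 18 left out, 20 principal components, resolution 0.4). Clusters were named by the class that had most of its markers detected, meaning seen in at least 10% of cells and at least 2-fold over the median of other clusters, with at least 3 detected. The name was withheld where the leading genes of a cluster held more markers of another class than of its own. Mature osteoblast-like cells had at least 3 markers and 5 marker UMIs, and chondrocyte-like cells at least 3 markers and 30 marker UMIs, thresholds set after the clusters were seen. Just under the first threshold lay 104 control and 67 Piezo1 fl/fl bone cells. Just under the second, with 20 to 29 marker UMIs, lay 11 control and 5 Piezo1 fl/fl cells.

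UMIs were summed per type and library. Poisson, binomial and conditional ratio intervals are exact at 95% (scipy 1.17.1) and cover counting error only, and a count of 0 was bounded by 3 counts. With 1 library per genotype no p-value was computed. The scripts were tested on simulated data. The text names all 10 members, other mineralization genes from a list of 23, the 2 genes most like each member among genes with at least 100 UMIs, *Piezo1* and cell type markers. The members and lists were chosen with earlier results of these data known. Alternatives, 13 planned and 1 added after the data were seen, are given in the closing section.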

Additional observations from a re-analysis of the deposited data

Results flagged for a closer look

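For 4 genes the ratio of the Piezo1 fl/fl over the control library went past 2-fold upward in one cell type and downward in another. These differences between types were not tested, since there was 1 library per genotype. For *Ibsp*, *Bglap* and *Bglap2* the only upward type was chondrocyte-like, with 15 control and 29 Piezo1 fl/fl cells. Most of these control cells lay in a fibroblast-like cluster, and most of the Piezo1 fl/fl cells formed cluster 13. Values are log2 ratios.

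*Ibsp* was at 1.55 in chondrocyte-like cells and at -1.84 in tendon-like, -1.32 in fibroblast-like and -1.29 in lining-like cells. The fibroblast-like value includes control cells of a cluster led by *Col2a1*. *Phex* was at 1.33 in SSPC-2-like cells and at least 2.30 in chondrocyte-like cells, where the control had 0 UMIs, and at -3.13 in mature osteoblast-like cells.

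*Bglap* was at 1.71 in chondrocyte-like cells. It was at -3.53 in endothelial-like, -2.26 in tendon-like, -2.21 in fibroblast-like, -1.56 in mural-like, -1.79 in lining-like and -1.36 in blood-like cells. *Bglap2* was at 2.15 in chondrocyte-like cells and at -3.73 in endothelial-like, -2.56 in tendon-like, -1.81 in fibroblast-like and -1.34 in mural-like cells. The endothelial-like values rest on 1 UMI of each gene in the Piezo1 fl/fl library, against 13 of *Bglap* and 15 of *Bglap2* in the control, with 95% intervals of -8.94 to -0.79 and -9.13 to -1.03. The tendon-like values rest on 5 UMIs of *Bglap* and 3 of *Bglap2* in the Piezo1 fl/fl library, against 19 and 14 in the control. In the endothelial-like and mural-like cells that set the free RNA level, the osteocalcin genes thus stood lower in the Piezo1 fl/fl library.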

How the results depend on the processing

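Of 839 ratios of members recomputed under the alternatives, 600 moved by no more than the counting interval, 232 moved further and 7 reversed. Only a ratio past the 2-fold rule in the main setting could count as reversed, so other changes of sign lie among the 600 and 232. Under every setting, 52 of 64 ratios kept their sign. In SSPC-2-like cells, where 2 members were higher in the Piezo1 fl/fl library, the number was 1 with the mean of per-cell CPM, 1 without the top cell, 0 with thinned cells and 5 with control cluster 8 counted whole. In mature osteoblast-like cells it went from 2 to 0 with the mean of per-cell CPM, 1 without the top cell, 0 with thinned cells and 0 with cluster 8 whole. The number lower there went from 1 to 2 under 10% mitochondrial UMIs, 4 without the top cell and 2 with thinned cells. With types set by markers per cell, 4 members in place of 7 were higher in Piezo1 fl/fl mature osteoblast-like than in SSPC-2-like cells, and the log2 ratio of *Spp1* reversed to -0.35 (control) and -0.25 (Piezo1 fl/fl), and that of *Enpp1* to -1.51 and -0.28. *Phex* in Piezo1 fl/fl SSPC-2-like over Chad-led cells reversed to -0.52 at resolution 0.2 and -0.44 with doublets kept, and over vascular cells to -0.016 with doublets kept. The cause was not tested. The mean of per-cell CPM and the subtracted vascular level have no interval and were judged by the fold alone, and the subtraction was not applied to the vascular comparison.

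No paired analysis was possible because there was 1 library per genotype. For the same reason no replicate was left out. *Phospho1* and *Mepe* had too few UMIs for a ratio, and *Phex* had 10 and 15 UMIs in SSPC-2-like cells.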

Other observations

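Blood-like cells with 3 or 4 of the 4 osteoclast markers *Acp5*, *Atp6v0d2*, *Ocstamp* and *Dcstamp* numbered 2 of the control and 9 of the Piezo1 fl/fl library. *Spp1*, which osteoclasts also make, was at 425 CPM (138 to 993, from 5 UMIs) in those of the control and 491 CPM (365 to 645, from 51 UMIs) in those of the other library, against 56.7 and 227 CPM in blood-like cells with fewer of these markers.

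*Nt5e*, which encodes the enzyme that makes adenosine from AMP, stood at 622 and 723 CPM in control and Piezo1 fl/fl chondrocyte-like cells, against 41.5 and 39.7 CPM in mature osteoblast-like cells. Among the other mineralization genes, 5 of 19 were higher in the Piezo1 fl/fl library in SSPC-2-like cells (*Smpd3*, *Ank*, *Mgp*, *Galnt3* and *Fam20a*) and 0 were lower, where 4.37% and 1.78% of all genes were, and in mature osteoblast-like cells 4 of 18 were higher (*Slc20a1*, *Ank*, *Mgp* and *Fam20a*) and 0 lower, where 4.35% and 3.86% of all genes were. The rise of *Mgp* was not limited to bone cells. By the same rule it was also higher in chondrocyte-like, endothelial-like, lining-like and blood-like cells, but not in tendon-like, fibroblast-like or mural-like cells. *Ank* was also higher in chondrocyte-like cells.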
